A study of Caenorhabditis elegans with 2 samples.

Results

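The chromatin around 10 core and scaffold genes of autophagy was examined in a map of where a GFP-tagged transcription factor binds. The genes were lgg-1, lgg-2, epg-7, sqst-1, unc-51, bec-1, atg-9, atg-13, atg-18 and atg-16.2, out of 19973 protein-coding genes. They were selected by name from the core machinery and its scaffolds, at a time when the signal of the regions at epg-7, lgg-2 and lgg-1 was already known. The levels of these genes are therefore given as a description, with no test. For each gene, every listed region with its summit in the gene body or within 2 kb of it was taken. That gave 30 of the 30000 regions of the list made from both libraries together, 27 regions of the replicate 1 list and 39 of the replicate 2 list.

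Autophagy is the process in which cells enclose cytoplasm, organelles or protein aggregates in a double membrane, the autophagosome, and deliver them to the lysosome for breakdown. An Atg1-type kinase complex starts it, a lipid kinase complex marks the membrane, vesicles carrying ATG-9 supply lipid, and a conjugation machinery couples Atg8-type proteins to the growing membrane, where receptors and scaffolds bring the cargo. In Caenorhabditis elegans this pathway clears aggregates and paternal mitochondria in the embryo and helps larvae survive starvation, including the arrest of hatched larvae without food.

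Chromatin immunoprecipitation followed by sequencing (ChIP-seq) had been done on whole first-stage (L1) larvae of strain OP355, which carries the unc-119 allele tm4063 on chromosome III and the insertion wgIs355. The animals were of both sexes and of unknown age, and the 2 libraries were biological replicates 1 and 2 of this single group. There was no untreated or other group, and the matched control was not analysed here. The labels name the tagged gene in different ways, as mdl-1 in the antibody and source fields and as ZK337.2 in the description, and do not say which promoter drives the tagged gene. The strongest pooled region (503.3) was found 97 bp upstream of mdl-1, while ZK337.2 (klu-1) had no thresholded region within 50 kb. Regions near a gene do not identify the tagged protein, and which gene was tagged was not tested. MDL-1 belongs to the MAD-type transcription factors, which pair with MAX-like partners through a leucine zipper and bind the E-box CACGTG.

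Each region carries a signal, which is a value deposited by the authors. How it was scaled is not given here. Each list was ranked by it, rank 1 being the highest. In the pooled list, signal ran from 15.98 to 503.3 with a median of 20.3. The authors named this list as peaks and background, so a region in it need not be a binding site. The authors' thresholded list holds the 259 regions of highest pooled signal, which is 0.863% of the pooled list, and its lowest signal was 49.8. The replicate lists held 30000 regions each. Their signals had medians of 12.9 in replicate 1 and 11.01 in replicate 2, so values are compared within a list, and across lists by rank. Depth is unknown because the files hold no read counts. With 2 libraries of 1 group, no test of a difference can be made.

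The sequences that carry the results below come from assembly WBcel235 (ce11) as held by RefSeq. Each stretch is centred on the summit of the strongest region of a gene. The first 3 are the thresholded regions, and those of atg-9 and unc-51 are the strongest at a gene without a thresholded region. Capitals mark the E-box CACGTG, the related hexamer CATGTG (which reads CACATG on the other strand), and a GA repeat, GAGAGAG, which reads CTCTCTC on the other strand.

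epg-7, chrX:7334509-7334609, plus strand: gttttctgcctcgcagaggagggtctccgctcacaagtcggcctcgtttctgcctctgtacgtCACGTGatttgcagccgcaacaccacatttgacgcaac

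lgg-2, chrIV:10936076-10936176, plus strand: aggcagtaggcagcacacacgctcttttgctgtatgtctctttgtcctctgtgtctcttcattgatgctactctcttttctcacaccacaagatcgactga

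lgg-1, chrII:6348639-6348739, plus strand: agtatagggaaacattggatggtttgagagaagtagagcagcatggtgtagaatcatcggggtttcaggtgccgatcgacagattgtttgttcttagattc

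atg-9, chrV:349206-349306, plus strand: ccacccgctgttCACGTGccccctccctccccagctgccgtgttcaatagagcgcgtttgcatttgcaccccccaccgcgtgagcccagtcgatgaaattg

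unc-51, chrV:20005896-20005996, plus strand: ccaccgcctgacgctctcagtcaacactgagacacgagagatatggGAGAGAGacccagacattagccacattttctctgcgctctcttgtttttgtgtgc

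Thresholded regions lay at 3 of the 10 genes, epg-7, lgg-2 and lgg-1, with 1 region each. Of all protein-coding genes, 1.78% had a thresholded summit in the same kind of window. Because these calls were known when the genes were selected, nothing is read from that contrast. All 3 thresholded regions lay upstream of the gene in intergenic sequence, and in each case the gene itself had the nearest protein-coding 5' end. The other 7 genes had no thresholded region. Of these, 5 had weaker pooled regions, and sqst-1 and atg-18 had none. At least 1 pooled region in such a window was thus found at 8 of the 10 genes, near the 86% of all protein-coding genes.

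**Figure D1:**
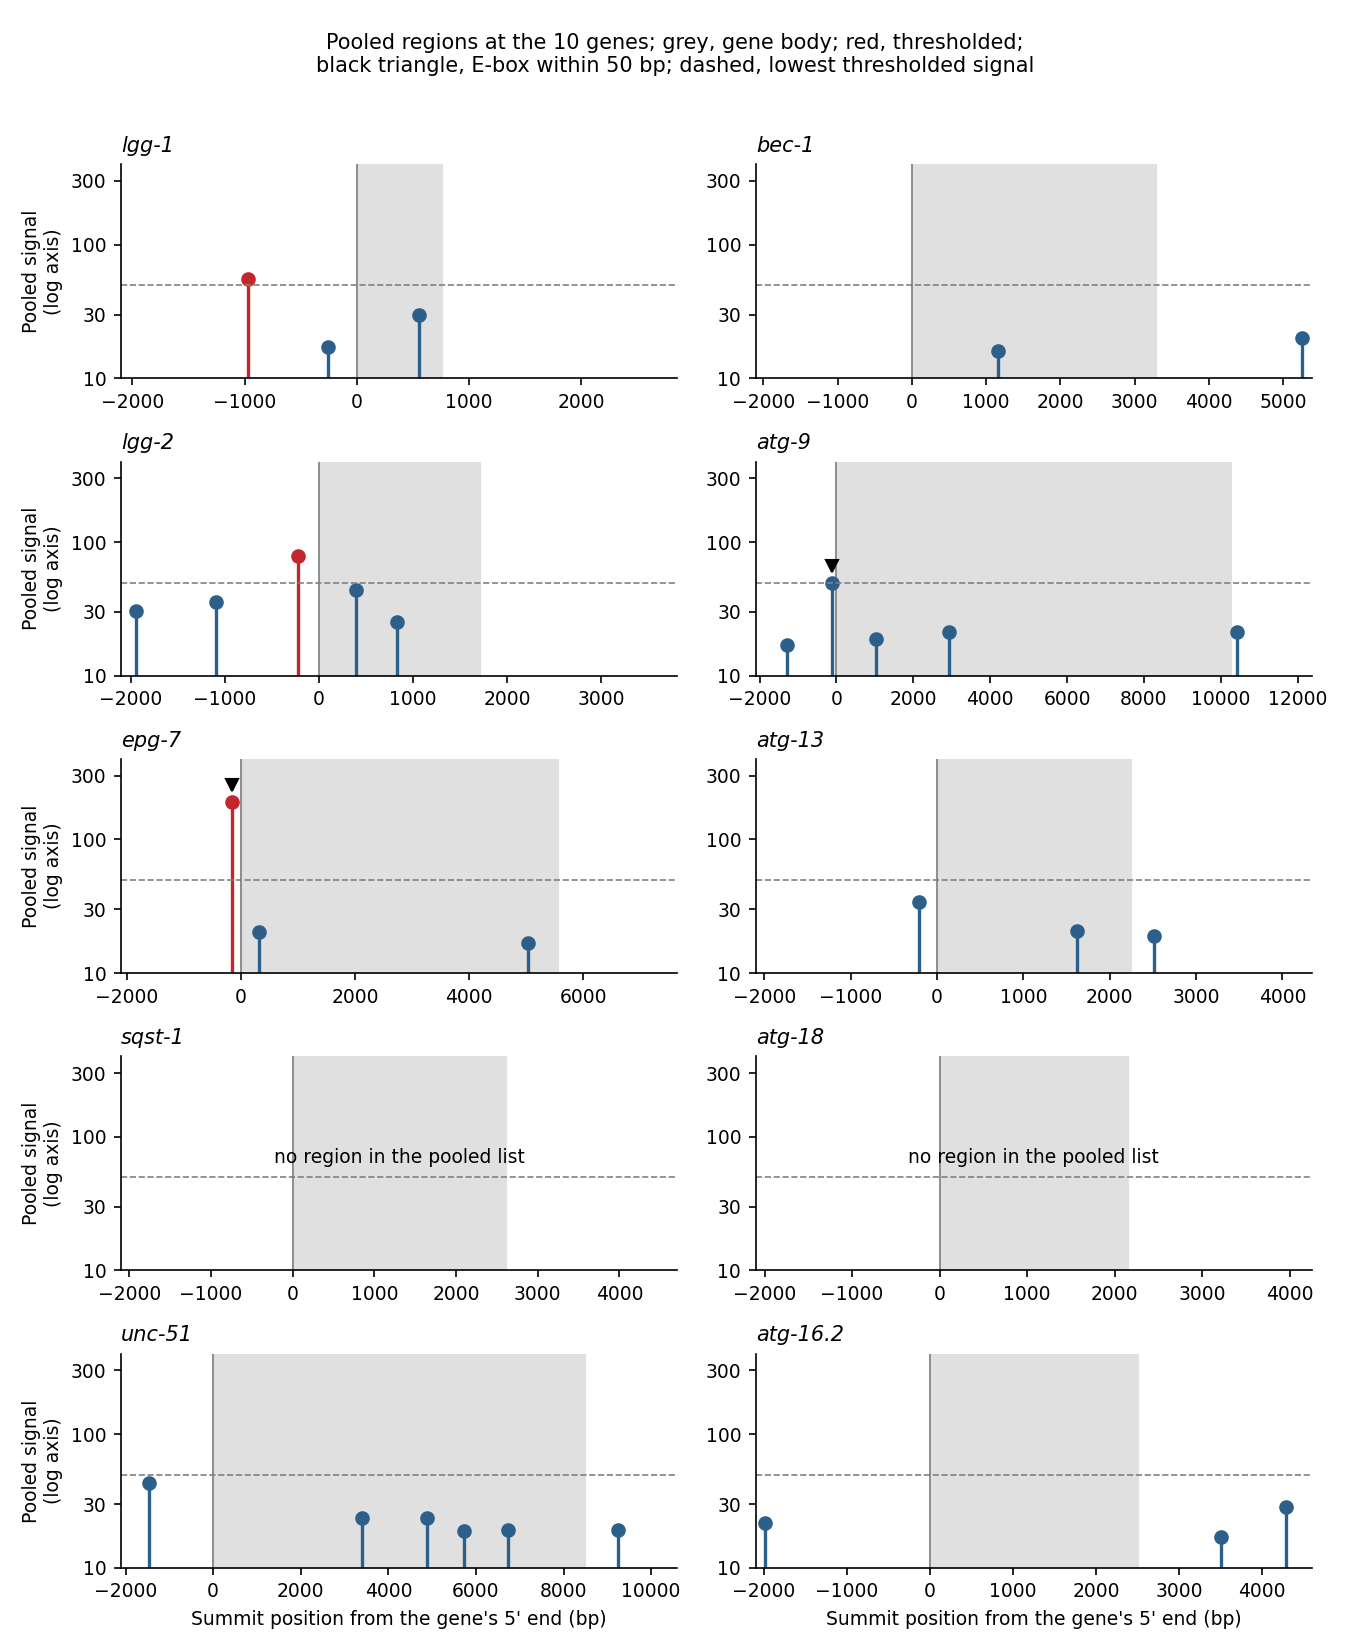
Pooled regions at the 10 genes. The horizontal axis gives the summit's distance from the 5' end of the gene in bp (negative values are upstream), the vertical axis the deposited pooled signal on a log scale, each stem is 1 region, the grey band is the gene body, red stems are thresholded regions, black triangles mark a CACGTG within 50 bp of the summit, and the dashed line is the lowest thresholded signal. The 3 red stems stand upstream of lgg-1, lgg-2 and epg-7, and the stem 129 bp upstream of atg-9 ends just under the line.

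Among the scaffold and receptor genes, epg-7 had by far the strongest region of the set. EPG-7 is a scaffold that links the cargo receptor SQST-1 to the autophagosome machinery. Its gene (WBGene00020334) lies on the plus strand at chrX:7334714-7340268, and the region spanned chrX:7334389-7334728 with a summit 155 bp upstream of the gene. Pooled signal was 189.6, and the replicates gave 86.6 (replicate 1) and 101.5 (replicate 2). The region ranked 17, 21 and 17 in these lists, and the summits of the 3 lists lay within 1 bp of each other. Only 0.0851% of protein-coding genes had a stronger pooled region in their window. The next protein-coding 5' end was that of ttr-30, 3610 bp away.

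The epg-7 region held a single CACGTG, at chrX:7334572-7334577, with its centre 15.5 bp from the summit. Inside epg-7 the pooled list held 2 further regions, a coding exon region 316 bp into the gene (signal 20.4) and an intron region at 5030 bp (signal 16.9). Both had a match in replicate 2 only. Replicate 2 listed 8 regions in the epg-7 window in all, and replicate 1 listed only the upstream one.

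The receptor itself, sqst-1, stood at the other end. SQST-1, the homologue of mammalian p62, binds ubiquitinated cargo. Its gene (WBGene00011737, chrIV:12034282-12036891, plus strand) had no pooled region in its window. Replicate 1 listed a region downstream of the gene with a signal of 10.2 (rank 28428), and replicate 2 listed one in a coding exon with 13.6 (rank 7096), at different places. The only CACGTG of the sqst-1 window lay 887 bp upstream of the gene, and the nearest pooled summit was 3606.5 bp from it.

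The Atg8 homologues lgg-1 and lgg-2 encode the small proteins that are coupled to the autophagosome membrane, and LGG-1 is the usual marker of autophagosomes in the worm. For lgg-2 (WBGene00002981, chrIV:10934196-10935903, minus strand) the thresholded region spanned chrIV:10935956-10936295, and its summit was 223 bp upstream of the gene. Pooled signal was 79.3, with 40.1 for replicate 1 and 36.3 for replicate 2, at ranks 92, 91 and 149. The summits lay 99 bp from the pooled one in replicate 1 and 13 bp in replicate 2. This region thus stood among the 259 strongest of each replicate.

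Further pooled regions surrounded it, so that lgg-2 had 5 regions over 2765 bp, 4 of which had a match in both replicates. The one 1094 bp upstream (signal 35.9, rank 885) was nearer to the 5' end of fic-1, the neighbouring gene on the opposite strand, at 457 bp. The one 1939 bp upstream (30.6, rank 2149) lay in a coding exon of fic-1. A region in a coding exon of lgg-2 (25.04, rank 6418) had its summit 38 bp from the start of the shorter of the 2 annotated transcripts.

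The fifth, in an intron of lgg-2 and 392 bp from the 5' end, differed between the libraries. It had a pooled signal of 43.6 (rank 368) and ranked 109 in replicate 2 with a signal of 41.6. Replicate 1 had no region within 200 bp of it. In replicate 2 this intron region was stronger than the upstream one, at 36.3. Its sequence, shown because it holds both CATGTG and GAGAGAG in a region that a single library listed, was the following.

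lgg-2 intron, chrIV:10935461-10935561, plus strand: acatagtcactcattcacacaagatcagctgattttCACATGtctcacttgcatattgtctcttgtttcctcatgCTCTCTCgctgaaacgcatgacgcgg

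For lgg-1 (WBGene00002980, chrII:6346960-6347719, minus strand) the thresholded region spanned chrII:6348519-6348858, with a summit 970 bp upstream. Pooled signal was 55.7, against 29.9 for replicate 1 and 27.6 for replicate 2. Its ranks were 201, 195 and 288, so it was among the 259 strongest of replicate 1 and not of replicate 2, where the value at rank 259 was 28.6. Summits lay 15 bp apart in replicate 1 and 1 bp apart in replicate 2. The next protein-coding 5' end, of C32D5.8, was 2725 bp away.

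A weaker region stood closer to lgg-1. At 253 bp upstream the pooled signal was 17.3 (rank 24668), but replicate 2 listed this place with 25.08 (rank 392) and replicate 1 did not list it. A region in the 3' UTR, 556 bp into the gene, had a pooled signal of 30.03 and matched replicate 1 only (20.3, rank 1772). Neither thresholded region of the Atg8 homologues held any of the marked sequences within 50 bp of its pooled summit, as the stretches above show. The lgg-2 summit of replicate 1, 99 bp from the pooled one, had 2 matches to CATGTG within 50 bp. Within the whole lgg-2 window there was no CACGTG at all, and the single one in the lgg-1 window lay 1118.5 bp from the nearest pooled summit.

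**Figure D2:**
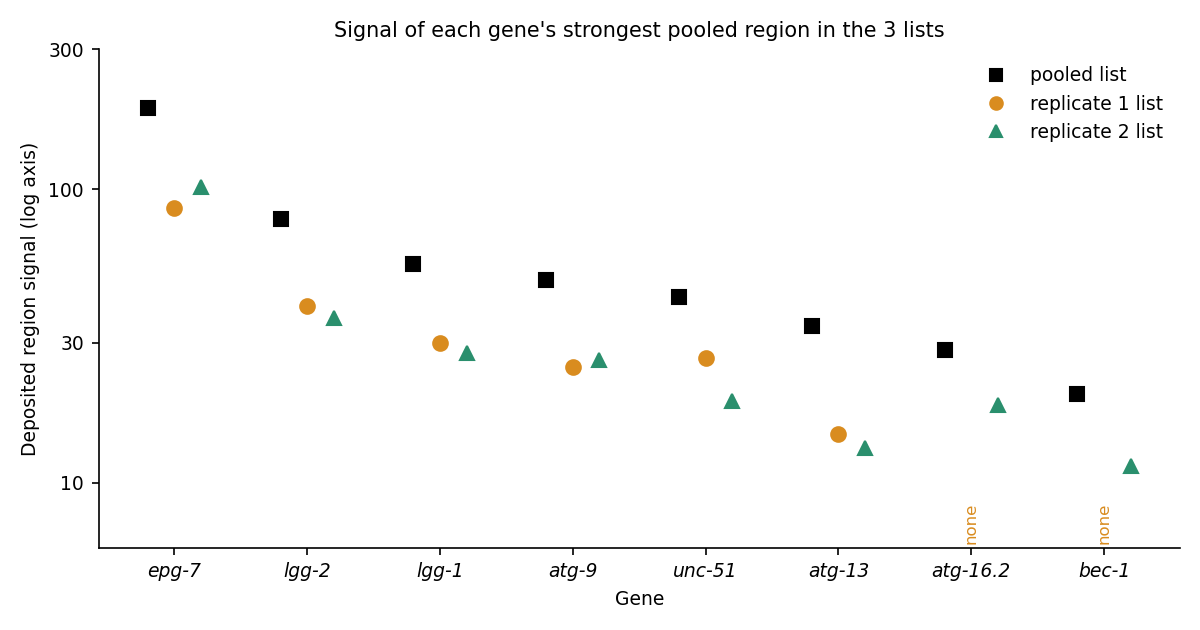
Deposited signal of each gene's strongest pooled region (log axis) in the pooled list (black squares) and at the matching summit of the replicate 1 (orange circles) and replicate 2 lists (green triangles), by gene in order of pooled signal. The pooled values run from 189.6 at epg-7 to 20.06 at bec-1, and replicate 1 had no match at atg-16.2 and bec-1.

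ATG-9, the transmembrane protein of the vesicles that feed the growing membrane, is encoded by atg-9 (WBGene00020706, chrV:349385-359658, plus strand). Its strongest region, chrV:349086-349425, peaked 129 bp upstream of the gene and fell 7 ranks below the last thresholded region. The pooled signal was 49.2 (rank 266), against 49.8 for the last region that passed, and 49.7 for the first that did not. Replicate 1 gave 24.8 (rank 503) and replicate 2 gave 26.1 (rank 344), with summits 8 bp and 0 bp from the pooled one. The call at atg-9 thus differs from that at lgg-1 by a signal of 49.2 against 55.7, with lgg-1 higher in each replicate.

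The atg-9 region held CACGTG at chrV:349218-349223, with its centre 35.5 bp from the summit, and was the only pooled region of these genes besides that of epg-7 with the E-box in that window. Both regions lay next to the 5' end, matched in both replicates, and had a GC content of 56.4% (epg-7) and 62.4% (atg-9) over the 101 bp around the summit. The median was 43.1% over the pooled regions of these genes, 35.6% over all pooled regions and 49.5% over thresholded ones. Position and match were not particular to the E-box. The thresholded region of lgg-2, without it, lay 223 bp upstream and matched in both replicates, with a GC content of 46.5%. The remaining 4 pooled regions of the atg-9 window had signals of 16.96 to 21.4. The last of them lay in a coding exon of the neighbouring T22H9.1.

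The Atg1-type complex was represented by unc-51, which encodes the kinase, and atg-13, which encodes its regulatory partner. For unc-51 (WBGene00006786, chrV:19995986-20004485, minus strand) the strongest region, chrV:20005776-20006115, lay 1461 bp upstream. Pooled signal was 43.06 (rank 389), and the libraries gave 26.6 (rank 338 of replicate 1) and 19.04 (rank 1334 of replicate 2). It held a GAGAGAG and no CACGTG. The other 5 regions of unc-51 had signals of 18.9 to 23.8, and its 3 CACGTG, all in coding exons, lay 113.5 to 373.5 bp from the nearest pooled summit.

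For atg-13 (WBGene00017045, chrIII:8155947-8158190, minus strand) the strongest region lay 213 bp upstream, with a pooled signal of 34.3 (rank 1107), 14.7 in replicate 1 (rank 9292) and 13.1 in replicate 2 (rank 8246). Its summit was 213 bp upstream in the pooled list, 273 bp in replicate 1 and 364 bp in replicate 2. A CACGTG lay at chrIII:8158583-8158588, 182.5 bp from the pooled summit, and therefore inside the 50 bp window of the replicate 2 summit only. The stretch from the pooled summit to this E-box is shown for that reason.

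atg-13, chrIII:8158383-8158608, plus strand: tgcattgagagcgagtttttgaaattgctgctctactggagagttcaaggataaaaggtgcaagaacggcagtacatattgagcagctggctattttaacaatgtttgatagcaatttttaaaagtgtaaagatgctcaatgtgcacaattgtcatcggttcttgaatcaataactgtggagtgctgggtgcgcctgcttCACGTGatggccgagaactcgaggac

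The remaining 3 genes had weak regions or none. BEC-1, the Beclin 1 homologue in the lipid kinase complex, is encoded by bec-1 (WBGene00000247, chrIV:5661141-5664425, minus strand). Its window held pooled regions of 20.06 (rank 15722), in an intron of the neighbouring skn-1, and 16.01 (rank 29873), in an intron of bec-1. Replicate 1 listed no region in this window and replicate 2 listed 4, with the strongest at 11.4.

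ATG-18, a WIPI-type protein that binds the lipid made by that kinase complex, is encoded by atg-18 (WBGene00018294, chrV:8629174-8631327, minus strand). No region of the pooled list or of replicate 1 lay in its window. Replicate 2 listed a region 129 bp upstream with a signal of 12.7 (rank 9129), and the window held no CACGTG.

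ATG-16.2, a component of the complex that couples Atg8-type proteins to lipid, is encoded by atg-16.2 (WBGene00019427, chrII:6450889-6453391, minus strand). Its 3 pooled regions, of 28.4 (rank 3359), 21.7 and 17.2, all lay in its flanks and each had another gene's 5' end nearer, namely nhr-22 for the first and the last and aptf-1 for the second. The strongest was in an intron of nhr-22 and matched replicate 2 only (18.4, rank 1668). No region lay inside atg-16.2 in the pooled list.

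**Figure D3:**
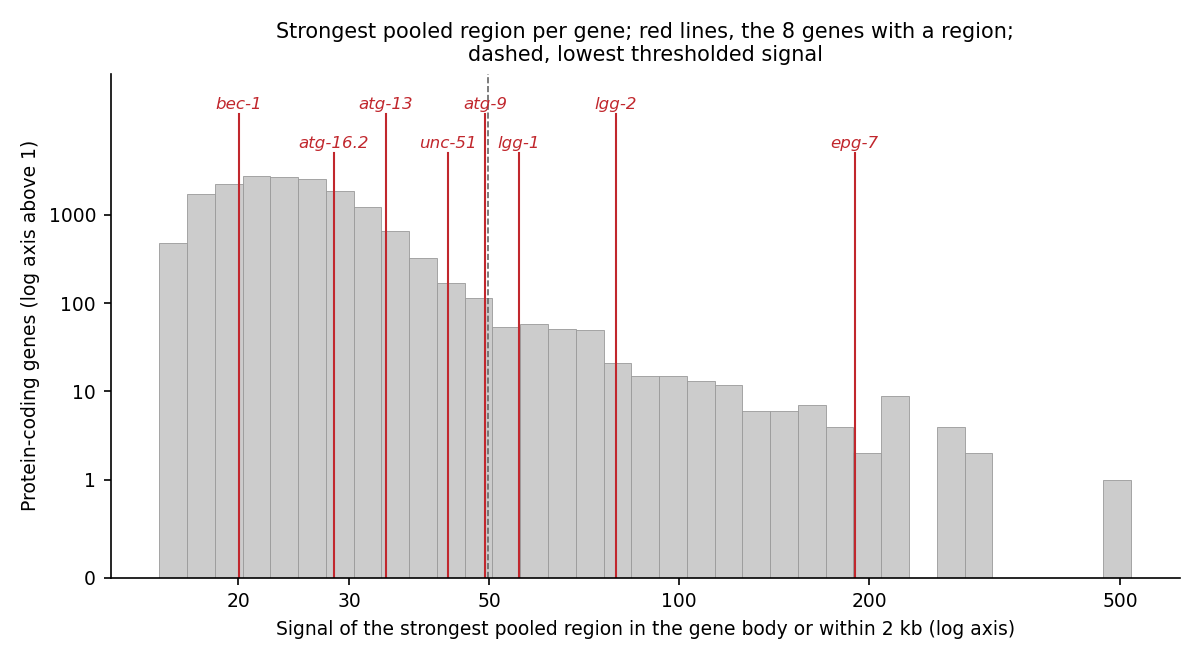
Strongest pooled region of each protein-coding gene, in the gene body or within 2 kb. The horizontal axis gives the deposited signal (log scale), the vertical axis the number of genes per bin (log scale above 1), red lines mark the 8 genes that had a region, and the dashed line is the lowest thresholded signal. Lines for bec-1 and atg-16.2 fall in the bulk of the genes, and that of epg-7 at 189.6 in the far tail.

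Ordered by the strongest pooled region, the genes ran epg-7, lgg-2, lgg-1, atg-9, unc-51, atg-13, atg-16.2 and bec-1. The share of protein-coding genes with a stronger one was 0.531% for lgg-2, 1.39% for lgg-1, 1.84% for atg-9, 2.61% for unc-51, 7.47% for atg-13, 20.6% for atg-16.2 and 65.1% for bec-1. At the matched regions, the order epg-7, lgg-2, lgg-1 held in each replicate. Atg-9 and unc-51 changed places, with 24.8 against 26.6 in replicate 1 and 26.1 against 19.04 in replicate 2. Their order thus differed between the replicates, and a difference between them was not tested. The median strongest signal was 46.1 over the 8 genes with a region and 23.7 over all protein-coding genes with one. The signals at epg-7, lgg-2 and lgg-1 were known when the genes were selected, so nothing is read from this contrast.

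Among the 259 strongest regions of replicate 1 there were regions at 3 of the 10 genes (epg-7, lgg-2 and lgg-1), beside 1.8% of all protein-coding genes. Among those of replicate 2 there were regions at 2 (epg-7 and lgg-2), beside 1.63% of all. These shares come from the libraries that also made the thresholded list, and lend it no independent support.

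Of the 30 pooled regions, 12 had a matching summit within 200 bp in both replicate lists (40%), against 24.9% of all pooled regions. The 12 include the regions of epg-7, lgg-2 and lgg-1 known when the genes were selected, so nothing is read from this contrast. Another 11 matched replicate 2 only, 7 matched replicate 1 only, and none was without a match. Over all pooled regions, 29% matched replicate 2 only and 35.8% replicate 1 only. Agreement went with strength, which is partly built in, because the pooled signal comes from the same libraries as the replicate lists. Of the 7 regions at rank 1000 or better, which lay at epg-7, lgg-2, lgg-1, atg-9 and unc-51, 6 matched in both, beside 91.1% of all pooled regions of such ranks. Of the 23 weaker ones 6 did, beside 22.6%. The exception among the strong ones was the intron region of lgg-2.

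**Figure D4:**
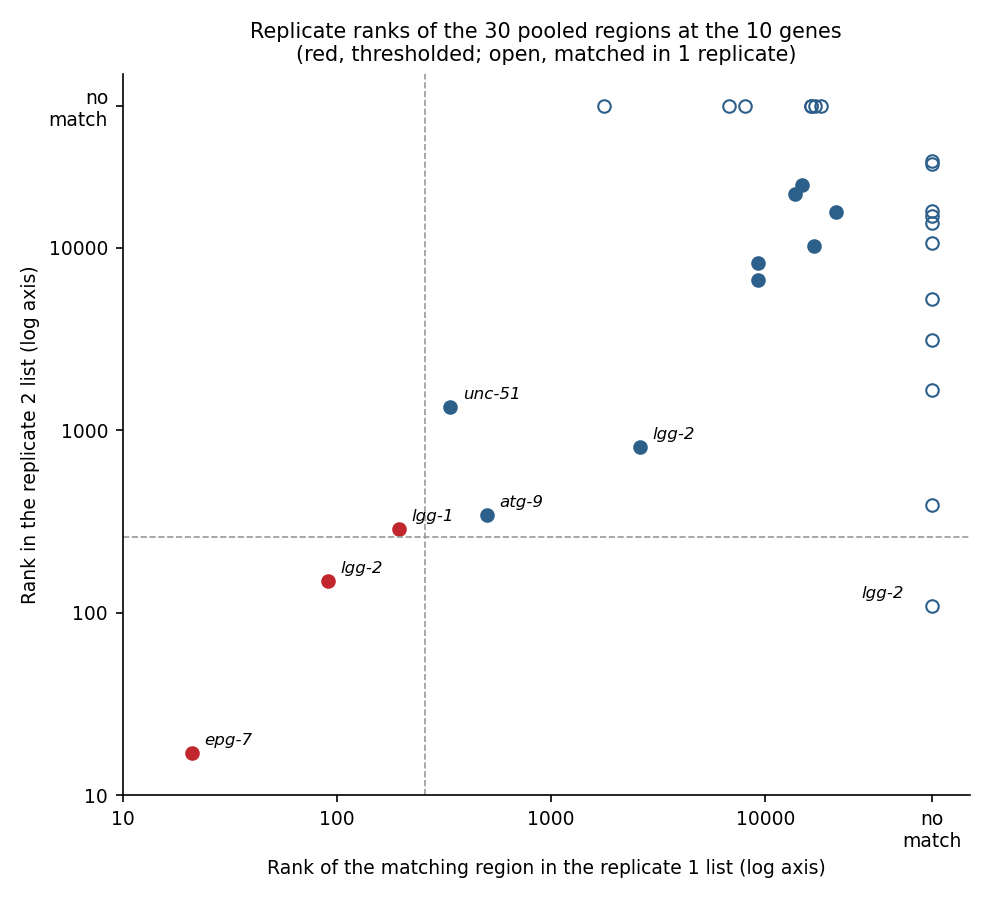
Rank of the matching region in the replicate 1 list (horizontal, log axis) and in the replicate 2 list (vertical, log axis) for the 30 pooled regions at the 10 genes. Red points are thresholded, open points had a match in 1 replicate and sit at the edge marked no match, and dashed lines mark rank 259. The 3 thresholded regions lie at the lower left, and the lgg-2 intron region sits at rank 109 of replicate 2 with no match in replicate 1.

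In addition, 8 regions of replicate 1 and 16 of replicate 2 in these windows had no pooled region within 200 bp. All were weak, with signals up to 14.1 (rank 10869) in replicate 1 and 13.8 (rank 6727) in replicate 2.

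Position was taken next. Of the 30 summits, 11 lay upstream of the gene, 13 in the gene body and 6 downstream, with median pooled signals of 35.9, 20.5 and 19.6. The same medians over all protein-coding genes were 20.55, 20.3 and 20.2. Of the 7 regions at rank 1000 or better, 6 were upstream and none was in a coding exon. The upstream regions include the thresholded ones of these genes, whose signal was known when the genes were selected. Nothing is therefore read from these contrasts in position. In total 12 summits (40%) lay in coding exons, 11 (36.7%) in intergenic sequence, 6 in introns and 1 in a 3' UTR. Over the whole pooled list, which unlike these windows is not tied to genes, 24.4% lay in coding exons and 35.2% in intergenic sequence. Among thresholded regions of the whole list these shares were 1.93% and 57.9%, so strong regions were seldom in coding exons over the whole list too. Another gene's body held 6 of the 30 summits, with signals up to 30.6. The summits just inside the 2 kb limit were those 1988 bp upstream of atg-16.2, 1960 bp downstream of bec-1 (that gene's strongest) and 1939 bp upstream of lgg-2, and the nearest one outside it lay 2559 bp from sqst-1 (pooled signal 19.0). The next was 2709 bp from atg-18 (18.2).

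CACGTG was found within 50 bp of the summit, on either strand, at 2 of the 30 pooled regions. Over all pooled regions the share was 2.49%, and over thresholded regions 25.1%. Of the 3 thresholded regions of these genes, that of epg-7 had it. CATGTG was found at 2 regions, one in the lgg-2 intron and the other 1277 bp upstream of atg-9. The share was 3.5% over all pooled regions and 9.65% over thresholded ones. GAGAGAG was found at 5 regions, those of unc-51 and the lgg-2 intron and weak ones at lgg-1, atg-9 and atg-16.2, none of them thresholded. Its share was 2.01% over all pooled regions and 17.4% over thresholded ones. A match of letters is a description of the sequence and not a binding site.

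The reverse count starts from the sequence. The 10 windows, 79.6 kb in all, held 14 CACGTG at 7 genes, or 17.6 per 100 kb, against 17.7 per 100 kb over the 6 chromosomes. A pooled summit lay within 50 bp of the centre of 2 of the 14, those upstream of epg-7 and atg-9. Over the genome this was so for 4.46% of 17729 CACGTG, and a thresholded summit lay that close to 0.395%. Of the 12 others, 7 were in coding exons (3 of unc-51, 2 of atg-9 and 1 each of the neighbours D2007.2 and nhr-22), 2 in introns of neighbouring genes and 3 in intergenic sequence at lgg-1, sqst-1 and atg-13. The windows of lgg-2, bec-1 and atg-18 held none.

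A further 23 autophagy genes were taken as the rest of the pathway, among them the other conjugation genes, the lipid kinase genes vps-34 and vps-15, metazoan genes such as epg-5, and receptors for mitochondria such as dct-1. A thresholded region lay at 1 of them (4.35%), beside the 1.78% of all protein-coding genes given above. This was epg-9, which encodes the Atg101-type partner of the UNC-51 kinase complex. The region, chrIV:2602003-2602342, lay in an intron of epg-9, 1032 bp from the 5' end. Pooled signal was 62.9 (rank 156), and the libraries gave 34.8 (rank 126 of replicate 1) and 27.03 (rank 305 of replicate 2). It resembled lgg-1 in standing among the 259 strongest of replicate 1 and not of replicate 2.

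The epg-9 summit had a CACGTG 72.5 bp away, outside the 50 bp window, as the following stretch shows.

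epg-9, chrIV:2602093-2602253, plus strand: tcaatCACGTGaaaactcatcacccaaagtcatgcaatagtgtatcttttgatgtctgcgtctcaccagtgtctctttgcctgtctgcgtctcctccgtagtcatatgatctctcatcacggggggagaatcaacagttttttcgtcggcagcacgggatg

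The 22 remaining genes of that list had no thresholded region. Their pooled regions, with those of epg-9, numbered 58, with a median signal of 21.7, near the 21.55 of the 30 regions at the 10 genes and the 20.3 of the whole pooled list. Of the 58, 15 (25.9%) matched in both replicates and 1, that of epg-9, stood at rank 1000 or better. The median strongest region per gene was 25.75 over the 22 genes that had one.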

How the data were processed

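Regions were taken from the lists deposited by the authors for build ce11 (1 pooled, 1 thresholded and 1 per replicate); the ce10 thresholded list served as an alternative. Per the readme files deposited with the lists, a control entered the making of the region lists, and the thresholded list was derived from the pooled list and those of both replicates. By their deposited names, the pooled list is peaks and background used as input for IDR (irreproducible discovery rate). The thresholded list was cut by IDR, a measure of agreement between replicates. The aligner, the caller and the value of the threshold are not given in these sources. Region signal is a deposited value; depth is unknown, and a difference in depth could change the signal and rank of weak regions. A score deposited in the q-value column went below 0 (-0.114 to 2.05 in the pooled list), and was not used.

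Gene positions came from Ensembl release 115 and sequence from RefSeq, both WBcel235; pooled regions ended inside the reference on all 6 chromosomes. All 10 genes matched RefSeq by symbol. Files were read with Python 3.11.15 and pandas 2.3.3. A region belongs to a gene when its summit lies in the gene body or within 2 kb, and regions of 2 lists match when summits are at most 200 bp apart. Motif searches covered either strand, up to 50 bp from a summit. These steps were tested on simulated data with planted regions. No statistical test was run. The 10 genes, the list of 23 others and the 3 sequences were chosen with earlier results of these data known. The text names all 10 genes, those of the 23 with a thresholded region, genes nearest to a described region, and the tagged genes of the labels. Neighbours whose body holds a summit or an E-box were named after values were seen, and vps-34, vps-15, epg-5 and dct-1 only as examples of the 23. Alternatives changed the flank, assignment, annotation, threshold, build, sequence window, matching distance and replicates included.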

Additional observations from a re-analysis of the deposited data

How the results depend on the processing

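The count of 3 genes with a thresholded region was also 3 within 1 kb, within 5 kb, by any base within 2 kb, with RefSeq positions and in the ce10 thresholded list. It was 2 among the 129 strongest thresholded regions, where lgg-1 dropped out, and 5 among the 1000 strongest pooled regions, which add atg-9 and unc-51. With a replicate left out it was 2 to 3, and lgg-1 was lost without replicate 1. For the other autophagy genes, 1 became 0 among the 129 strongest and 0 to 1 with a replicate left out, epg-9 being lost without replicate 1. The 30 pooled regions became 50 within 5 kb, 23 within 1 kb, and 27 to 39 in single replicates. The 2 regions with CACGTG became 1 within 25 bp (epg-7), 6 within 150 bp, 12 with any CANNTG, and 2 to 4 in single replicates. Matches in both replicates fell from 12 to 7 at 50 bp and were 14 at 400 bp or by shared bases. The strongest region stayed the same for 5 of 8 genes within 1 kb, which removes those of unc-51, bec-1 and atg-16.2, for 7 within 5 kb, and for 6 in each single replicate list. Wider or narrower windows change these counts by construction. No paired analysis was possible because the study holds a single group. For the single replicate lists the cause was not tested. The unknown depth limits what can be said of weak regions.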

Other observations

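Regions with GAGAGAG and those with CACGTG both matched replicate 2 alone more often than replicate 1 alone, a pattern seen after the values were known and not tested. Of the 5 regions with GAGAGAG at these genes, 4 matched a region of replicate 2 only, among them the intron region of lgg-2 (rank 109 there) and the region 253 bp upstream of lgg-1 (rank 392 there). Of the 604 pooled regions with GAGAGAG, 32.3% matched replicate 2 only and 21% replicate 1 only. For the 748 with CACGTG the shares were 30.5% and 21.5%, while over all pooled regions they were 29% and 35.8%. Among the 259 strongest regions, GAGAGAG stood at 21.6% in replicate 2 and 11.6% in replicate 1. CACGTG stood at 22.4% and 18.5%.

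The sequence CGTCTC, found at 25.9% of thresholded and 3.44% of all pooled summits, was at 2 of the 30 regions, both between lgg-2 and fic-1 or in fic-1, with signals of 35.9 and 30.6. None of the 3 thresholded regions had it within 50 bp of the pooled summit, but the replicate 1 summit of the lgg-2 one, 99 bp away, had 2 matches. The first region outside the 2 kb flank was weak at most of these genes (signals of 18.1 to 21.7), apart from bec-1, where one 3892 bp from the gene had a pooled signal of 35.03 (rank 997), above both regions inside its window.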
